A study of Mus musculus with 4 samples.

Results

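Immediate early genes were examined as a group of 10 named genes: Fos, Fosb, Jun, Junb, Jund, Atf3, Egr1, Ier2, Ier3 and Zfp36. They were taken by symbol from 53465 listed genes, and all 10 passed the filter on low counts that left 14682 genes for testing. The cells were myeloid-derived suppressor cells (MDSCs), immature myeloid cells taken with antibody to Gr-1 on magnetic beads from spleens of male BALB/c mice that carried the mammary carcinoma line 4T1 (1000000 cells injected under the skin at 6 weeks of age). The labels place the sacrifice on day 21, whereas the methods of the study give a shorter interval. In the control group, 2 libraries came from cells kept for 6 h in medium alone, and in the EGCG group 2 libraries came from cells kept for 6 h with EGCG (epigallocatechin gallate, a polyphenol from tea) at 5 μg/mL. Both groups therefore shared the tumor, the sort and the culture, and no library of uncultured cells or of an earlier time was analysed here. Whether replicates were separate mice or separate wells is not given in the sources used here, so p-values measure the spread between these libraries, which may be technical.

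Immediate early genes are transcribed soon after a cell meets a growth factor, cytokine or stress, and they need no newly made protein for it. MAP kinases act on factors already bound at their promoters, such as SRF with an Elk protein and CREB, and the messages are short-lived, so that their level follows recent signaling. Fos and Jun proteins pair through leucine zippers to form AP-1, which in myeloid cells takes part in activation and in differentiation toward monocytes and macrophages. Other members feed back on the response: Zfp36 encodes tristetraprolin, which speeds the decay of many inflammatory messages.

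The sequence before the transcription start that RefSeq gives (GRCm38.p6) was available for 8 of the 10 genes, and not for Egr1 and Ier2. That start is at or near the gene start given below for Fos, Fosb, Jun, Junb and Ier3, but it lies well upstream of it in Jund and well inside the annotated gene in Atf3 and Zfp36, so matches in these 3 genes refer to the RefSeq start only. The 3 promoters below are shown because they belong to the classical AP-1 genes Fos and Jun and to Fosb, the gene with the largest difference among the 10. Each is the 150 bases before the RefSeq start, 5′ to 3′ on the strand of the gene, and capitals mark the motifs found by a search of both strands. Fos lies at chr12:85473740-85473889 (+), Fosb at chr7:19310046-19310195 (-) and Jun at chr4:95052223-95052372 (-).
Fos: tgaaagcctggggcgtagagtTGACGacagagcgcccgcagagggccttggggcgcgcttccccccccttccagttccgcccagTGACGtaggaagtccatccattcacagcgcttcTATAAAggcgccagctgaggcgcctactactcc
Fosb: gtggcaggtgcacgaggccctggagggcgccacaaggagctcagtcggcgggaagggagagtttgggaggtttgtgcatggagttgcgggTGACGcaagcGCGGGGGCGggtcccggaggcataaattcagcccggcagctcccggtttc
Jun: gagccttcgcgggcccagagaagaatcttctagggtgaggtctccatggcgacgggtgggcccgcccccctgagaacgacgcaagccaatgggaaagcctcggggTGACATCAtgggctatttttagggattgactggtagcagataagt

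The search covered the 250 bases before the start in the members, as in all RefSeq promoters, of which the nearest 150 are shown above. In the Fos promoter, the letters TGACG, the core of the element that CREB and ATF proteins bind, occurred 129 and 66 bases before the start, and TATAAA began 33 bases before it. TGACG or its reverse CGTCA also occurred in the promoters of Fosb, Junb and Atf3, so that 4 of 8 members held it, whereas 17.8% of 32851 RefSeq promoters did. The full element TGACGTCA, which contains that core, occurred in 0 of the 8 (1.55% of all promoters), and so did the AP-1 element TGAGTCA or TGACTCA (4.46%). The Jun promoter held TGACATCA, a variant of the AP-1 element (2.93% of all promoters, counting the reverse TGATGTCA). The letters GCGGGGGCG, which EGR proteins can bind, occurred in Fosb and Zfp36, and they or their reverse CGCCCCCGC in 2.57% of all promoters. Only Zfp36 of the 8 had a CArG box, the element of SRF, in this window (1.47% of all promoters). Its letters CCATAAAAGG began 58 bases before the start. Bases further upstream, also those of Fos, were not searched. TATAAA or its reverse TTTATA was found in 12.4% of all promoters and, among the members, in Fos. These matches describe letters in a short window, and no binding was measured.

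Between 17767318 and 18390385 reads were counted on genes per library. Neutrophil markers dominated, with a sum over 10 genes between 59200 and 79410 CPM (counts per 1000000, on library sizes scaled by the TMM method), led by S100a9, and the highest sum was in EGCG replicate 1. The sums ran from 920.4 to 1005 CPM for 6 monocyte markers (led by Csf1r), from 306.1 to 393.8 for 8 macrophage markers (Adgre1), from 331.4 to 375.7 for 5 B cell markers (Cd79b) and from 94.2 to 108.9 for 7 T and NK cell markers (Cd3d). They ran from 172.8 to 199.2 CPM for 5 basophil and mast cell markers (Mcpt8), from 141.8 to 190.8 for 5 erythroid markers (Hbb-bs), from 34.1 to 43.6 for 5 platelet markers (Itga2b) and from 22.7 to 26.7 for 4 epithelial markers (Cdh1). No marker was at 0 in all 4 libraries, and the macrophage sum was lower in both EGCG libraries (306.1 and 326.2 CPM) than in both control libraries (393.8 and 390.4). The monocyte sum (920.4 and 922.3 in EGCG, 1005 and 971.3 in control) and the platelet sum (35.4 and 34.1 in EGCG, 38.7 and 43.6 in control) were also lower in both EGCG libraries, and the T and NK cell sum was higher (106.8 and 108.9 in EGCG, 94.2 and 105.1 in control). In bulk RNA, fewer cells of a type and less RNA per cell cannot be told apart, and the part of these shifts in the results below was not tested.

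EGCG was compared with control by the quasi-likelihood test of edgeR, and p-values were adjusted over all tested genes. Of the 10 immediate early genes, 0 had an adjusted p under 0.05, a threshold passed by 0.15% of all tested genes. At an unadjusted p under 0.05 there were 2, Fosb and Jund, in opposite directions, and this share compares with 12.2% of all tested genes. DESeq2 gave 0 members past the adjusted threshold and 0 at an unadjusted p under 0.05. In that fit, 911 of about 27490 genes were under 0.05 before adjustment. The robust form of the edgeR fit did not keep Fosb at that level but had 2 members there, Jund and Atf3 (1811 of about 14680 genes). Alternatives that kept all libraries had from 0 to 3 members at that level. Log2 fold changes were below 0 for 6 members and above 0 for 4, with a median of -0.04, against a median of 0.0031 over all tested genes. This balance depended on single libraries. Without EGCG replicate 1, 3 members were below 0 and the median was 0.147. Without EGCG replicate 2, 8 were below 0 and the median was -0.17. Both EGCG libraries lay below both control libraries for 2 members, Fosb and Atf3 (21.2% of all tested genes), and above them for 2, Jund and Ier2 (21.5%). With 2 libraries a group, the smallest p of an exact two-sided permutation test is 0.333, so single genes were not tested in that way.

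**Figure D1:**
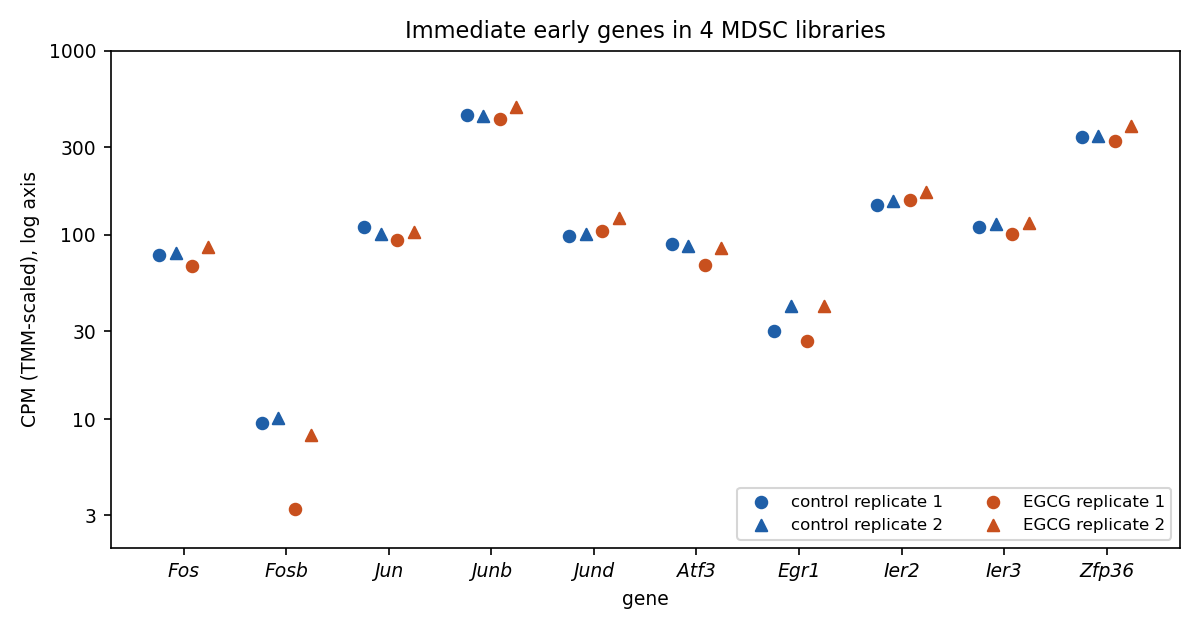
Expression of the 10 immediate early genes in each library, as CPM on a log axis (blue, control; orange, EGCG; circles, replicate 1; triangles, replicate 2). The 4 libraries lie close together for most genes, Fosb is lowest in EGCG replicate 1 at 3.25 CPM, and EGCG replicate 1 lies below EGCG replicate 2 for every gene shown.

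**Figure D2:**
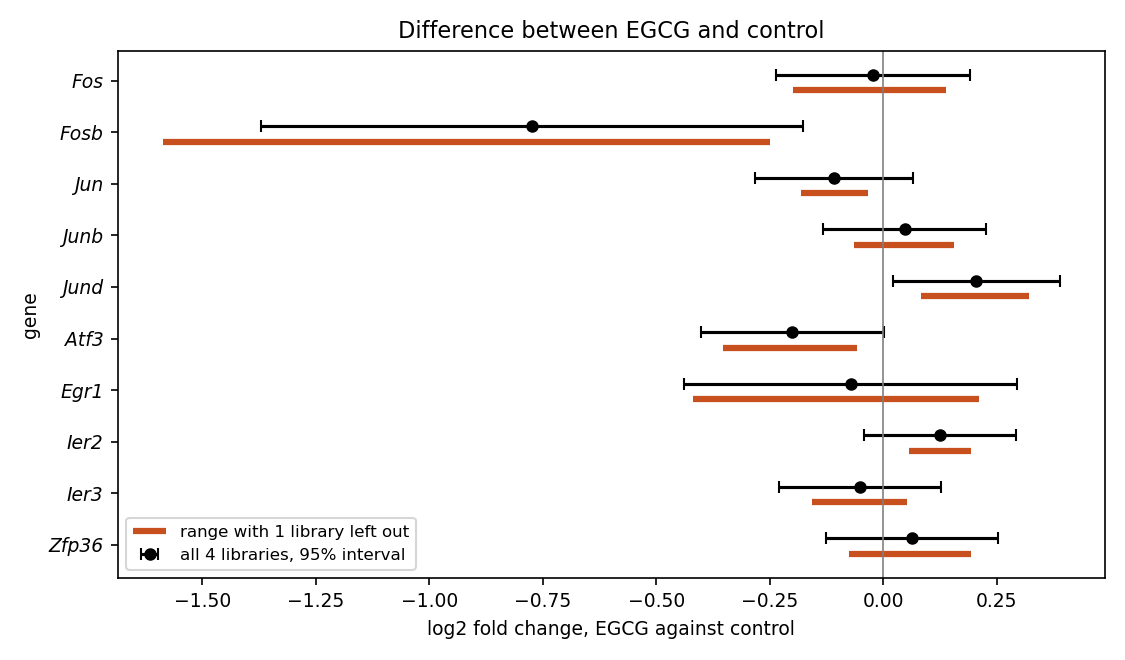
Log2 fold change of EGCG against control for each gene (black points) with its 95% interval, and the range of the same value when each of the 4 libraries was left out in turn (orange lines). The interval excludes 0 for Fosb and Jund only, and the orange line of Fosb runs from -1.59 to -0.25.

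Fosb (ENSMUSG00000003545, chromosome 7 of GRCm38, 19302696 to 19310051) encodes a Fos family protein that is inducible like Fos. Its counts were 173 and 181 under control medium and 59 and 147 under EGCG. Exact Poisson intervals, which cover counting error only, were 44.9 to 76.1 for the count of 59 and 124.2 to 172.8 for the count of 147, so the EGCG libraries differed from each other by more than counting error. Scaled levels were 9.47 and 10.1 CPM in control and 3.25 and 8.23 CPM in EGCG. Both EGCG libraries lay below both controls, EGCG replicate 2 by little and EGCG replicate 1 by far. The log2 fold change of Fosb was -0.77 (standard error 0.28, 95% interval -1.37 to -0.18), a fold of 0.585, with an adjusted p of 0.289 from edgeR. Without EGCG replicate 1 the log2 fold change was -0.25, and without EGCG replicate 2 it was -1.59, so that 1 library decides its size. Fosb was the least abundant of the 10 per length, at 1.24 CPM per kilobase of exon.

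Fos (ENSMUSG00000021250, chromosome 12, 85473890 to 85477273) encodes the founding member of that family and was at 77.3 and 79.4 CPM in control and 68.2 and 86.1 CPM in EGCG. The controls lay between the EGCG libraries, and the log2 fold change was -0.02 (95% interval -0.24 to 0.19), which bounds the fold between 0.849 and 1.14. It was 0.14 without EGCG replicate 1 and -0.20 without EGCG replicate 2. Whether the fold changes of Fos and Fosb differ from each other was not tested.

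Among the Jun family, Jun (ENSMUSG00000052684, chromosome 4, 95049034 to 95052222) encodes c-Jun, the strongest activator of the family. Jun was at 110.3 and 101.8 CPM in control and 93.4 and 103.4 CPM in EGCG, and its groups overlapped. The log2 fold change of Jun was -0.11 (standard error 0.08, adjusted p = 0.640 from edgeR). With 1 library left out it was nearer to 0 when that was EGCG replicate 1 (-0.035) or control replicate 1 (-0.045), and further from 0 when it was EGCG replicate 2 (-0.18) or control replicate 2 (-0.16). Junb (ENSMUSG00000052837, chromosome 8, 84974484 to 84978718) encodes a Jun protein prominent in myeloid cells. It was at 447.7 and 444.5 CPM in control and 425.9 and 495.9 CPM in EGCG, and its controls lay between the treated samples. The estimate for Junb was 0.05 on the log2 scale (95% interval -0.13 to 0.23), which became -0.066 without EGCG replicate 2.

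Jund (ENSMUSG00000071076, chromosome 8, 70698949 to 70700616), which unlike the other Jun genes is expressed steadily in resting cells, was at 98.7 and 100.7 CPM in control and at 105.5 and 124.3 CPM in EGCG. The groups did not overlap, but EGCG replicate 1 lay nearer to the controls than to EGCG replicate 2. The log2 fold change of Jund was 0.20 (standard error 0.09, 95% interval 0.02 to 0.39), with an adjusted p of 0.364 from edgeR. It was 0.08 without EGCG replicate 2 and 0.32 without EGCG replicate 1. In the annotation, 877 of the 1668 exonic bases of Jund are also exonic in Gm11175 on the other strand. Shorter stretches are shared by Jun with Junos (232 bases), Junb with Prdx2 (173 bases) and Zfp36 with Gm44710 (125 bases). The reads were counted without strand, so counts from these stretches are uncertain.

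Atf3 (ENSMUSG00000026628, chromosome 1, 191170296 to 191218039) encodes a stress-inducible zipper protein that represses many inflammatory genes. Its levels were 89.4 and 86.9 CPM in control and 69.0 and 84.5 CPM in EGCG. Both EGCG libraries lay below the controls, EGCG replicate 2 by little. The log2 fold change of Atf3 was -0.20 (standard error 0.09, 95% interval -0.40 to 0.00068), with an adjusted p of 0.411 from edgeR. It moved to -0.06 without EGCG replicate 1 and to -0.35 without EGCG replicate 2.

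Egr1 (ENSMUSG00000038418, chromosome 18, 34859823 to 34864984) encodes a zinc finger factor induced with Fos and known from macrophage differentiation. It was at 30.01 and 41.0 CPM in control and at 26.5 and 41.0 CPM in EGCG. Here the replicate 1 libraries were both low and the replicate 2 libraries both high, so the spread lay within the groups rather than between them. The log2 fold change was -0.07 with a standard error of 0.17, and it took either sign as a library was left out, from -0.42 without EGCG replicate 2 to 0.21 without EGCG replicate 1.

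The early response genes Ier2 and Ier3 encode small proteins, of which Ier3 is known to modulate cell survival. Ier2 (ENSMUSG00000053560, chromosome 8, 84661331 to 84662852) was at 145.2 and 153.3 CPM in control and at 155.0 and 170.4 CPM in EGCG. Its groups did not overlap and differed by 0.12 on the log2 scale (standard error 0.08, adjusted p = 0.563 from edgeR). This value was 0.056 without EGCG replicate 2 and 0.19 without EGCG replicate 1. Ier3 (ENSMUSG00000003541, chromosome 17, 35821684 to 35822923) was at 110.7 and 114.7 CPM in control and at 100.9 and 116.6 CPM in EGCG, so the groups overlapped. Its log2 fold change was -0.05 (95% interval -0.23 to 0.13).
Zfp36 (ENSMUSG00000044786, chromosome 7, 28376784 to 28380253), the gene of tristetraprolin, was at 339.0 and 342.4 CPM in control and 322.9 and 388.8 CPM in EGCG. The controls nearly coincided between the EGCG libraries, and the log2 fold change was 0.06 (95% interval -0.13 to 0.25).

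The libraries of the EGCG group stood further apart in these genes than the control libraries. EGCG replicate 1 lay below EGCG replicate 2 for all 10 members, compared with 51.3% of all tested genes. It was the lowest of the 4 libraries for 8 of them, the exceptions being Jund and Ier2, compared with 25.4% of all tested genes. The median log2 difference of EGCG replicate 2 from replicate 1 was 0.252 over the members and 0.0065 over all tested genes. In single genes it ran from 0.14 (Ier2) to 1.31 (Fosb), with Egr1 at 0.63 and Fos at 0.34. Between the control libraries the same median was 0.0329 over the members and -0.0014 over all tested genes, and Egr1 alone stood out at 0.45. Regardless of sign, the median size of the difference was 0.252 over the members and 0.137 over all tested genes between the EGCG libraries, and 0.0453 and 0.142 between the control libraries. As a share of all counts, the sum of the members was 0.150% and 0.147% in control, 0.135% in EGCG replicate 1 and 0.160% in EGCG replicate 2, so the controls lay between the EGCG libraries. This pattern was noticed in the data and is given as a description. The neutrophil marker sum was 79410 CPM in EGCG replicate 1 and 70100 CPM in EGCG replicate 2. It was 59200 and 70700 CPM in the controls. The macrophage sum was lowest in EGCG replicate 1, at 306.1 CPM against 326.2 CPM in EGCG replicate 2. The monocyte sums of the EGCG libraries were nearly equal, at 920.4 CPM in replicate 1 and 922.3 CPM in replicate 2. The part of these sums in the pattern was not tested.

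**Figure D3:**
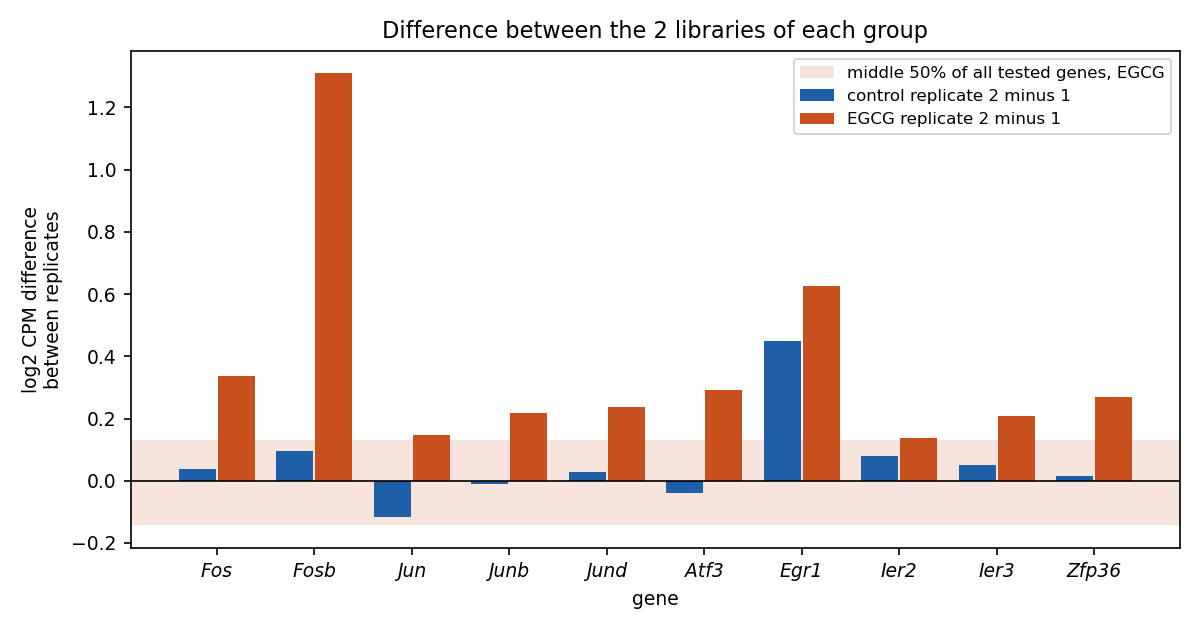
Log2 CPM of replicate 2 minus replicate 1 within the control group (blue bars) and within the EGCG group (orange bars) for each gene, with the middle 50% of all tested genes in the EGCG group as a band (-0.143 to 0.132). All orange bars are above 0 and above the band, whereas blue bars other than that of Egr1 stay between -0.12 and 0.10.

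To compare levels between genes, CPM were divided by exonic length in kilobases, as a mean over the 4 libraries. Junb was highest at 197.1 CPM per kilobase, above 98.1% of the tested genes, followed by Ier2 (102.5), Zfp36 (100.4) and Ier3 (97.9), which were close to each other. Jund was at 64.3, Atf3 at 38.3, Fos at 33.1 and Jun at 32.1, and Egr1 at 7.73 and Fosb at 1.24 were the lowest. The order of close neighbors is uncertain, since Ier2, Zfp36 and Ier3, or Atf3, Fos and Jun, differ by less than or about as much as the libraries of EGCG do. The exonic length joins the exons of all annotated transcripts, some of which may not be used in these cells. For Jund, 877 of the 1668 bases in this length are also exonic in a gene on the other strand. Its level, and its share given below, are therefore uncertain. The median exonic length was 2326.5 bases over the members and 3814.5 over all tested genes, with Fosb (6243 bases) and Egr1 (4484 bases) above the latter.

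The share of each transcript was then taken in the summed CPM per kilobase of the 5 Fos and Jun genes. Junb made up 60.3% and 60.2% in control and 60.3% and 59.8% in EGCG. Jund made up 18.3% and 18.8% in control and 20.6% and 20.7% in EGCG, whereas Jun made up 10.7% and 9.95% in control and 9.54% and 8.99% in EGCG. The shares of Jund were thus higher, and those of Jun lower, in both EGCG libraries, although the share of one gene depends on the others and was not tested. Fos stayed between 9.44% and 10.5%, and Fosb was at 0.470% and 0.506% in control and at 0.170% and 0.366% in EGCG. The Jun genes together exceeded Fos and Fosb together by 8.38-fold and 8.07-fold in control and by 9.41-fold and 8.50-fold in EGCG.

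**Figure D4:**
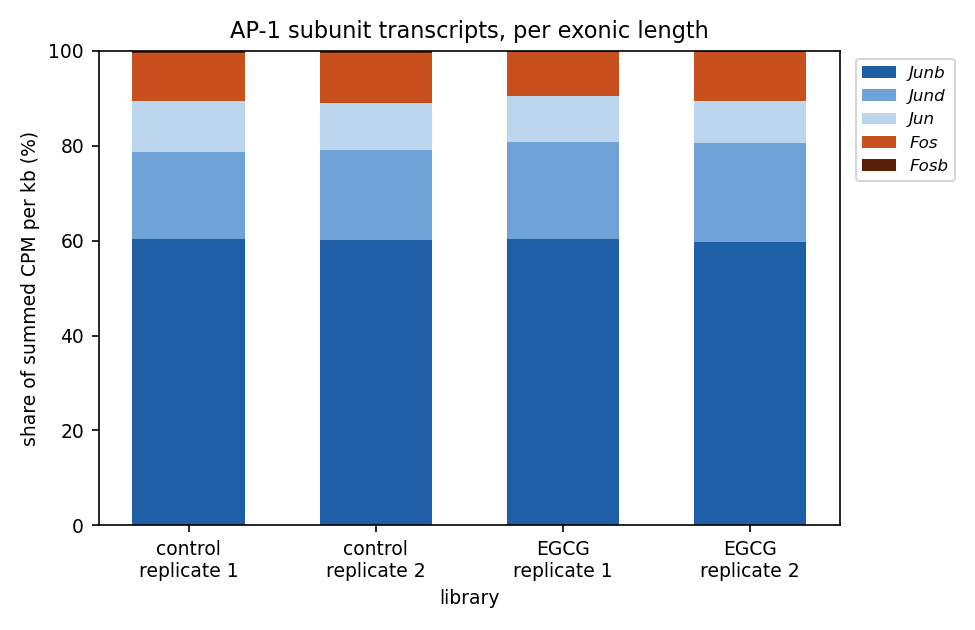
Share (%) of each Fos and Jun family transcript in their summed CPM per kilobase, stacked per library. Junb holds about the same share in each library, from 59.8% to 60.3%, the share of Jund is larger in both EGCG libraries, and Fosb at the top is barely visible at 0.170% to 0.506%.

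Genes around the members were read from the same fit, in lists written by symbol. Of 45 other early response genes, 44 were tested and 0 had an adjusted p under 0.05 from edgeR, while 11 had an unadjusted p under 0.05, 6 of them lower and 5 higher (25% of the list, against 12.2% of all tested genes). Their median log2 fold change was 0.03. The 3 with the smallest p were Ctgf, a secreted matricellular protein gene (log2 fold change -0.83, standard error 0.25, adjusted p = 0.218 from edgeR), Gadd45a, a DNA damage response gene (0.25, standard error 0.08, adjusted p = 0.230), and Plk2, a polo-like kinase gene (-0.33, standard error 0.12, adjusted p = 0.293). Ctgf had 66 and 82 counts in control and 46 and 37 in EGCG. EGCG replicate 1 lay below EGCG replicate 2 for 36 of these 44 genes (81.8%). In the lists described below, this share was 60% (other bZIP genes), 58.6% (genes of the input) and 63.2% (tristetraprolin targets), against 51.3% of all tested genes. The remaining gene, Arc, had at most 15 counts in a library.

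Of 21 other bZIP genes, which encode possible partners or relatives of Fos, Jun and Atf3, 20 were tested and 0 passed the adjusted threshold of edgeR, with 2 at an unadjusted p under 0.05 (10% of the list, against 12.2% of all tested genes). The median log2 fold change was -0.03. Creb5 had a log2 fold change of -0.55 (standard error 0.19, adjusted p = 0.279 from edgeR) and Atf1 0.15 (0.08, adjusted p = 0.476). The remaining Fos genes were near 0 or uncertain, with log2 fold changes of -0.02 for Fosl2 (standard error 0.07) and -0.26 for Fosl1 (0.20). Batf2 was not tested, with at most 9 counts in a library.

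Among 29 genes of the input, namely MAP kinases and their activators, the CREB kinases, SRF and its cofactors, 0 passed the adjusted threshold of edgeR and 2 had an unadjusted p under 0.05 (6.9%, against 12.2% of all tested genes). Mkl2, a coactivator of SRF, differed by -0.43 (standard error 0.12, adjusted p = 0.172 from edgeR), with 422 and 352 counts in control and 289 and 284 in EGCG. Map2k1, the kinase MEK1, had 0.18 (0.08, adjusted p = 0.403), and Braf had -0.17 (0.08, adjusted p = 0.434). The transcript of Srf itself had -0.04 (0.07). The median of the list was 0.02. RNA levels do not measure the phosphorylation through which these kinases act.

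Of 20 messages known as targets of tristetraprolin, 19 were tested, 15 with a log2 fold change below 0 and a median of -0.14, whereas 49.4% of all tested genes were below 0. Libraries of the same group also stood apart in this list. The median size of the log2 difference was 0.267 between the control libraries and 0.177 between the EGCG libraries. EGCG replicate 1 was the lowest library for 10 of the 19 (52.6%, against 25.4% of all tested genes). Again 0 passed the adjusted threshold of edgeR, and at an unadjusted p under 0.05 there was 1, Cxcl3 (5.26%, against 12.2% of all tested genes). This neutrophil chemokine gene had 172 and 203 counts in control and 88 and 118 in EGCG (log2 fold change -0.86, standard error 0.18, adjusted p = 0.0826 from edgeR). The study named Cxcl3 among genes that changed in both these libraries and a separate microarray set. Since these libraries took part in that choice, the value of Cxcl3 here is no independent evidence for the list. By quantitative RT-PCR of MDSCs under EGCG, the study also reported a change of Cxcl3 in the direction of its sequencing. It reported lower Il6, Il10 and Csf2 (GM-CSF) messages by the same method. Cxcl2 had -0.22 (standard error 0.11, adjusted p = 0.418) and the interleukin gene Il1a -0.26 (0.13, adjusted p = 0.434), while Il1b had 0.02 (0.09). Csf2 was not tested, with at most 9 counts in a library.
In some genes of these lists the log2 fold change moved away from 0 when 1 library was left out. In each of those fits, calls also rose over all tested genes. Without EGCG replicate 2 the log2 fold change was -0.57 for Klf4, -1.095 for Cxcl3, -0.45 for Egr2 and -0.51 for Plk2. It was 0.37 for Klf2 without EGCG replicate 1. Without control replicate 1 it was -0.98 for Cxcl3 and -0.39 for Cxcl2, and without control replicate 2 it was -0.54 for Mkl2.

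**Figure D5:**
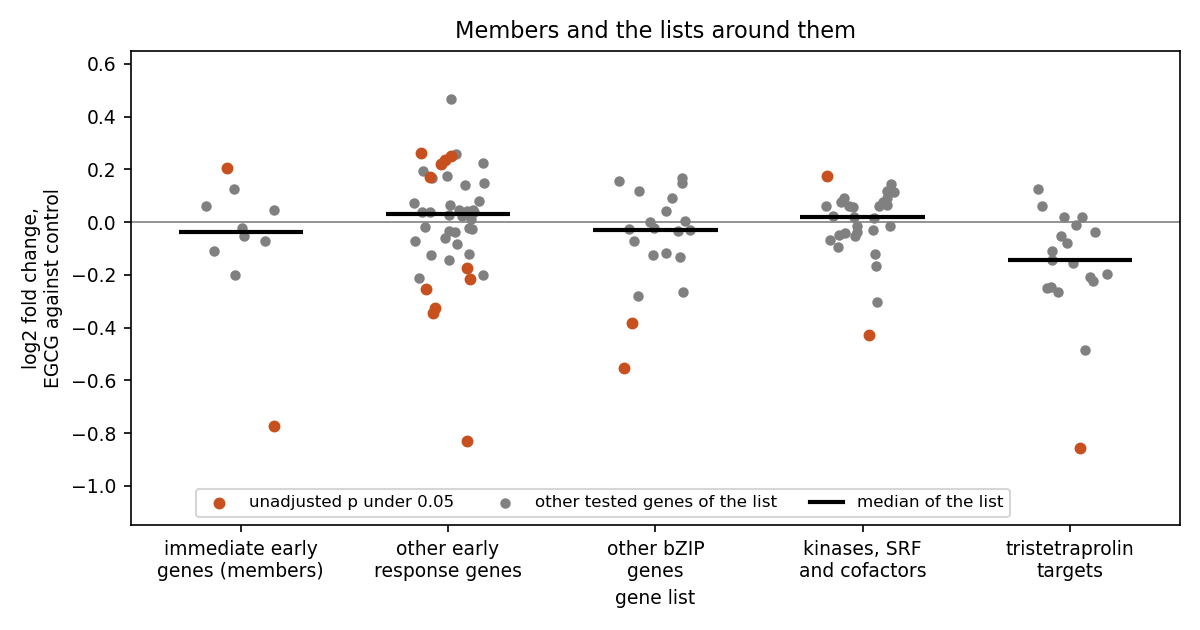
Log2 fold change of EGCG against control for each tested gene of the immediate early genes and of the 4 lists around them (points; orange, unadjusted p under 0.05), with the median of each list as a bar. The medians run from -0.14 (tristetraprolin targets) to 0.03 (other early response genes), and no gene shown had an adjusted p under 0.05.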

How the data were processed

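For alignment to GRCm38 the authors used STAR 2.6.0c; they counted them per gene on Ensembl release 91 with featureCounts 1.6.2 without using strand, and deposited raw whole-number counts. From these counts, genes were filtered with filterByExpr (minimum count of 10), TMM gave the scaling, and the groups were tested in edgeR 4.0.16 (quasi-likelihood test, legacy form, no block), with Benjamini-Hochberg adjustment across the tested genes and a threshold of 0.05. The standard error is the size of the log2 fold change divided by the square root of F, and 95% intervals use the test's degrees of freedom. Replicate log2 CPM used a prior count of 2. Gene positions and exonic lengths came from GENCODE M21 (GRCm38) and promoters from RefSeq. Replicates differed by more than sampling noise (chi-square per gene of 6.85 between control and 6.64 between EGCG libraries). The members, lists and markers were chosen with earlier results of these data known. Named genes are the members, the 3 genes with the smallest p in each list where none passed the threshold, and the most abundant marker of each cell type. An item that this rule selects is not reported here. Srf, Fosl1, Fosl2, Il1b, genes called without a library and genes that were not tested were named in addition, after their values were seen. Alternatives were other filters, scalings, edgeR fits, DESeq2 1.42.0, a length correction (loess span of 0.4), a replicate block and leaving out each library. Other tools were R 4.3.3, Python 3.11.15, pandas 2.3.3 and matplotlib 3.10.9.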

Additional observations from a re-analysis of the deposited data

How the results depend on the processing

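With a library left out, the lone library of a group is assumed to vary like the other group, so only effect sizes of the members are given there. For the immediate early genes, 0 were called under the 10 alternatives that kept all libraries. Their median log2 fold change was -0.04 with the replicate block and ran from -0.17 to 0.15 with a library left out (0.02 without control replicate 2). Directions held under the 10 other alternatives and turned only with a library left out: between the fits without EGCG replicate 2 and without EGCG replicate 1, log2 fold changes ran from -0.20 to 0.14 (Fos), -0.16 to 0.052 (Ier3), -0.42 to 0.21 (Egr1, also 0.17 without control replicate 2), -0.066 to 0.16 (Junb) and -0.076 to 0.19 (Zfp36). The replicate numbers were not shown to pair the libraries (correlation of deviations 0.0336). Over all tested genes, 20 were called lower and 2 higher. These counts became 0 and 0 with no filter on low counts (1795 genes at an unadjusted p under 0.05), 9 and 1 with a stricter filter (50 counts in 2 libraries), 135 and 16 with library size only, 49 and 14 with the robust fit, and 51 and 16 with DESeq2. Lower genes were 9 with upper-quartile scaling, and higher genes 6 with the newer fit, 6 with the replicate block and 9 with the length correction. With a library left out they ran from 72 to 235 lower and from 5 to 119 higher. In the lists around the members, 1 gene (Cxcl3) was called lower with library size only, the robust fit or the length correction, and with a library left out 0 to 5 were lower and 0 to 1 higher. The cause of these changes was not tested. Fosb had the lowest counts of the members, at 59 to 181, and so the widest relative counting error.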
